A study of Mus musculus with 30 samples.

Results

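To examine what the first 48 h of a high-fat high-sucrose diet (HFD) changed in the liver of lean mice, 6 lean-HFD livers were compared with 6 lean livers, 12 of the 30 liver arrays of the series. Members were taken by their sample titles, and all 22180 genes that an array probe set names by a single symbol were considered. The lean-HFD mice received control diet for 27 weeks and then HFD for 48 h, while the lean mice received control diet for 27 weeks only. All 12 were male, wild-type C57BL6/J mice aged 35 weeks. Fat supplied 58% of the energy of the HFD and 10.5% of that of the control diet. The study describes a short fast before the HFD was given. The sources used here do not say whether the lean mice were fasted in the same way, so the fast and the diet cannot be told apart.

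The liver makes fatty acids from sugar through a chain of enzymes that ends at fatty acid synthase, elongases and desaturases. The insulin-activated factor SREBP1c and the sugar-activated factor ChREBP raise the genes of this chain, and dietary fat, polyunsaturated fat above all, is known to lower them. Fat that arrives from the diet is burnt, stored in lipid droplets or sent out in lipoproteins, and its uptake in the gut needs bile acids, which the liver makes from cholesterol. The endoplasmic reticulum (ER) folds the secreted proteins of the hepatocyte, and its chaperones are raised together when folding demand grows.

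Signals are log2 values after RMA, the standard summary of Affymetrix arrays, and are given below as linear signals unless a log2 difference is named, always lean-HFD minus lean. The 12 arrays had medians of 3.32 to 3.38 on the log2 scale and correlated with each other across probe sets with *r* of 0.966 to 0.980. The number of arrays limits the precision. Albumin (*Alb*) had a linear signal of 6244 ± 232 (SD, n = 6) in lean-HFD and 6264 ± 282 in lean livers, and 0 of 18 hepatocyte markers passed the criteria given below. At limma *P* under 0.05 there was 1. In bulk tissue, fewer cells of a type and less RNA per cell cannot be told apart.

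One liver stood apart. Lean-HFD replicate 3 held the highest of the 12 values for 21 of 29 acute phase genes. Most of the 29 encode plasma proteins that hepatocytes release upon inflammation, and some, such as *Il1r1*, *Il6ra* and *Stat3*, encode receptors or regulators. The neutrophil-associated siderophore binder *Lcn2* had a signal of 797 in this liver, against 23.9 to 79.4 in the other lean-HFD livers and 26.9 to 61.6 in lean livers. Serum amyloid A2 (*Saa2*) reached 3007, against 32.1 to 347 in the other lean-HFD and 36 to 631 in lean livers. The acute phase protein *Orm2* reached 726, against 21.0 to 66.6 in the other lean-HFD and 33.5 to 80.5 in lean livers. These genes did not pass between the groups. For gene lists and for genes named by the rule given below, results that rest on this liver are therefore also given without it. Calls of other genes, such as *C8b*, *C9*, *Lrg1* or *Lifr*, were not followed gene by gene without it.

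Genes were called when limma *P* was under 0.01, the ratio of linear averages was above 1.2 in either direction and the average was above 8 in at least 1 group. By these criteria 316 of 22180 genes changed (1.42%): 165 rose (0.744%) and 151 fell (0.681%). Counted over all 41345 probe sets, 532 passed (1.29%). A *P* under 0.01 was reached by 647 probe sets, against 413 due by chance, and 1505 genes had an unadjusted *P* under 0.05. After adjustment over all probe sets, 3 of them (0.00726%) passed a false discovery rate (FDR) of 10%, among them 2 genes (0.00902%), the leptin receptor *Lepr* and the elongase *Elovl6*. Each *P* printed below is adjusted in this way or exact, so genes other than these 2 were called by the unadjusted criteria only. In the limma fits, 0 genes passed the FDR without lean-HFD replicate 3, 4, 5 or 6 or lean replicate 3 or 5, 1 did without lean replicate 1 or 6, 4 did without lean-HFD replicate 1 or lean replicate 2, and 7 did without lean-HFD replicate 2. Both groups were fully separated for 80 of the 316 genes, while this held for 0.564% of all genes. The 316 were called on the same values, so this is not separate evidence for the calls. Whichever liver was left out, 146 of the 316 stayed past the criteria, and 211 did without lean-HFD replicate 3.

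**Figure D1:**
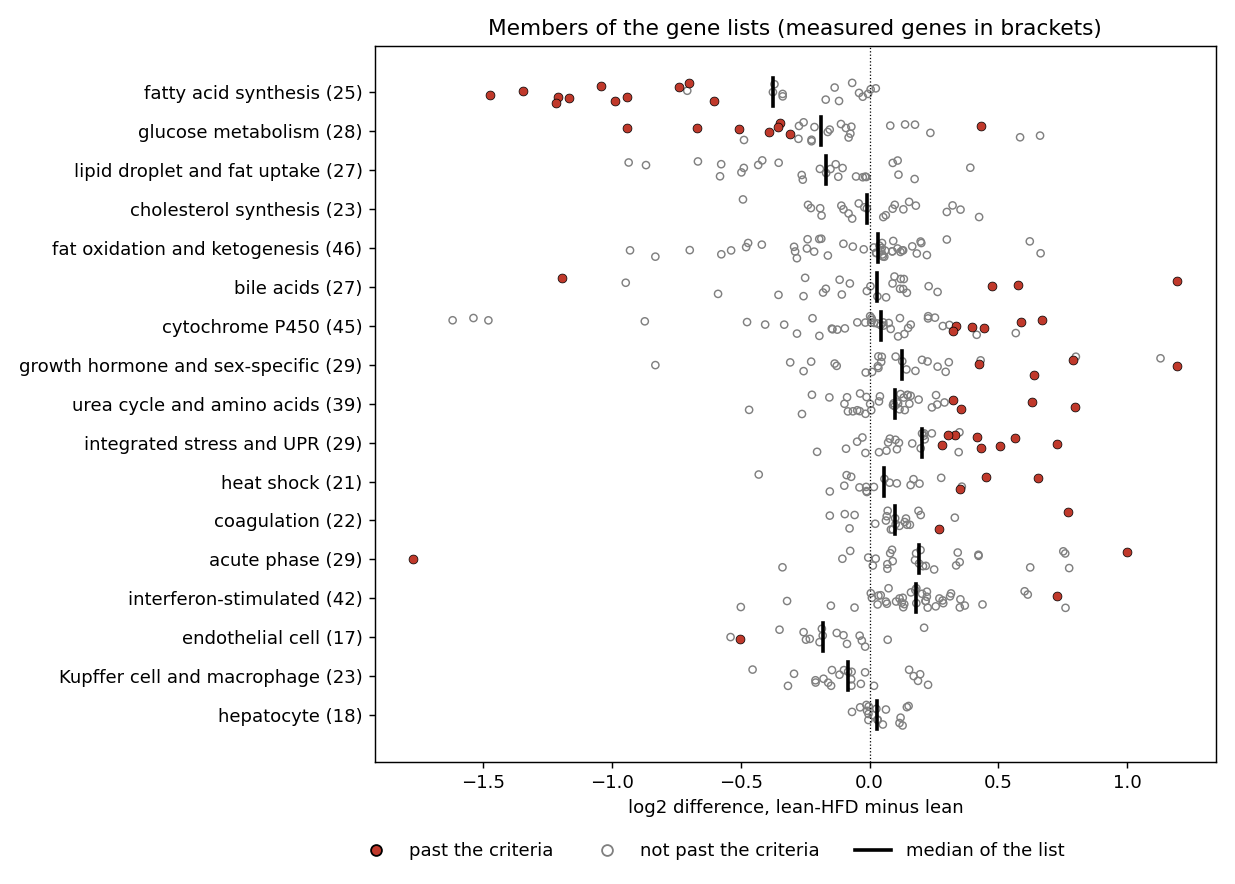
Log2 difference between lean-HFD and lean livers (x axis) for the measured members of 17 gene lists (y axis), each circle a gene, filled where it passed the criteria, and each bar a list median. The fatty acid synthesis list has a median of -0.38 with 11 members that fell, and the list of the unfolded protein response has a median of 0.20 with 8 members that rose.

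Fatty acid synthesis was the list with the largest share of called members. Of 25 measured members, 11 fell (44%) and 0 rose, 23 differences lay below 0, and the median log2 difference was -0.38, against 0.00 over all genes. *Elovl6*, which lengthens palmitate to stearate, had 235, 295 and 473 (lowest, median and highest) in lean-HFD livers and 575, 919 and 1093 in lean livers. The groups did not overlap, and *Elovl6* fell by 1.47 on the log2 scale (SE 0.189, limma adjusted *P*=0.0376). Fatty acid synthase (*Fasn*), which builds palmitate from malonyl-CoA, had 237, 467 and 944 in lean-HFD livers against 949, 1146 and 1419 in lean livers. Again all 6 lean-HFD livers lay below all lean livers, although the highest, replicate 2, nearly touched the lowest lean value. The difference of *Fasn* was -1.34 (SE 0.278, limma adjusted *P*=0.33, two-sided exact permutation *P*=0.00216, the smallest that regrouping 12 livers can give).

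The enzymes that feed carbon and reducing power into the chain fell as well. Malic enzyme (*Me1*), a source of NADPH, had 423, 561 and 999 in lean-HFD livers against 1028, 1371 and 1874 in lean livers (log2 difference -1.21, SE 0.194, limma adjusted *P*=0.122). ATP citrate lyase (*Acly*), which makes cytosolic acetyl-CoA, averaged 351 ± 139 in lean-HFD and 698 ± 164 in lean livers (n = 6 each). Acetyl-CoA carboxylase 1 (*Acaca*), the entry step of synthesis, averaged 180 ± 38.0 in lean-HFD vs 354 ± 63.5 in lean livers, with no overlap between the groups. Carboxylase 2 (*Acacb*), whose malonyl-CoA restrains fat oxidation at the mitochondrion, averaged 63.2 ± 32.3 in lean-HFD vs 129 ± 36.2 in lean livers with an SE of 0.331. Their log2 differences were -1.04, -0.99 and -1.17. Pyruvate kinase (*Pklr*), a known ChREBP target that closes glycolysis, had 279, 484 and 591 in lean-HFD against 687, 866 and 1020 in lean livers, again without overlap (-0.94, SE 0.166, limma adjusted *P*=0.176).

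Of the enzymes that finish the products, stearoyl-CoA desaturase 1 (*Scd1*) had 1348, 2246 and 3030 in lean-HFD livers against 3371, 3587 and 3819 in lean livers. All 6 lean-HFD livers were lower, by a log2 difference of -0.70 (SE 0.155, limma adjusted *P*=0.372, exact permutation *P*=0.00216). The elongase of polyunsaturated fatty acids *Elovl5* averaged 2064 ± 499 in lean-HFD vs 3051 ± 315 in lean livers and lay lowest in lean-HFD replicate 3, at 1136. *Pnpla3*, a lipid droplet lipase and acyltransferase, had 14.3, 20.0 and 41.7 in lean-HFD livers against 23.6, 51.0 and 80.8 in lean livers (-1.22, SE 0.295, limma adjusted *P*=0.435). *Gpam*, the acyltransferase that starts glyceride synthesis, averaged 597 ± 237 in lean-HFD vs 951 ± 180 in lean livers, but fell out of the criteria when any of 8 single livers was left out. Further members with small *P* that did not pass were the desaturases *Fads1* (-0.38) and *Fads2* (-0.34) and the acetyl-CoA synthetase *Acss2* (-0.71). Among lipid genes named after their values were seen, *Fads3* (-0.93), the acyl-CoA synthetase *Acsl5* (-0.47) and the phospholipid acyltransferase *Lpcat3* (-0.34) also fell.

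The regulators of the chain did not pass. *Srebf1*, which encodes SREBP1, had 88.0, 134 and 310 in lean-HFD livers and 119, 177 and 312 in lean livers, and the groups overlapped almost entirely (-0.34, SE 0.296, limma adjusted *P*=0.894, exact permutation *P*=0.325). *Mlxipl*, which encodes ChREBP, averaged 808 ± 108 in lean-HFD vs 811 ± 139 in lean livers (0.00, limma adjusted *P*=0.997), and *Thrsp*, a lipogenic cofactor, 1098 ± 393 in lean-HFD vs 1329 ± 179 in lean livers (-0.37, limma adjusted *P*=0.86). The array measures mRNA, so processing of SREBP1 and activity of ChREBP were not measured.

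**Figure D2:**
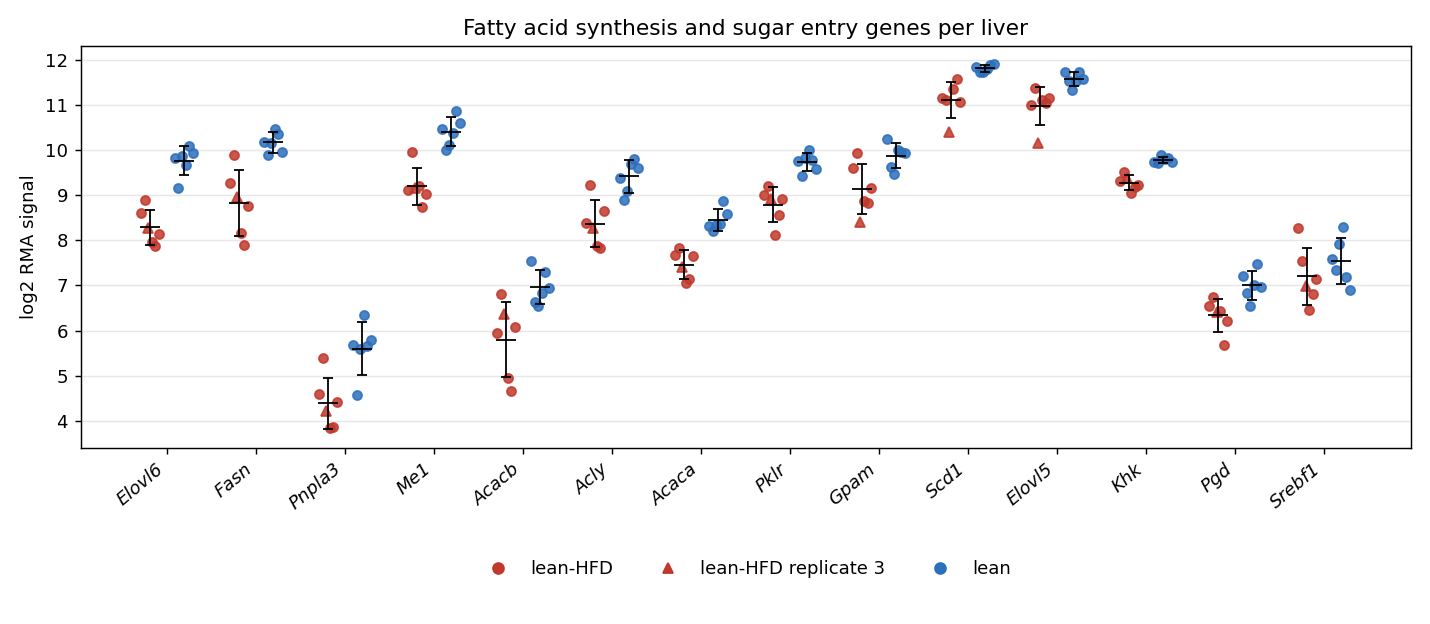
Log2 RMA signal (y axis) of fatty acid synthesis and sugar entry genes (x axis) in each liver, lean-HFD (red, replicate 3 as a triangle) left of lean (blue), with the mean and SD of 6 livers. *Elovl6*, *Fasn*, *Me1*, *Acaca*, *Pklr*, *Scd1* and *Khk* do not overlap between the groups, while *Pnpla3*, *Acacb*, *Acly*, *Gpam*, *Elovl5*, *Pgd* and *Srebf1* do.

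The lean-HFD livers differed in how far the list had moved. The list median in each liver, as log2 signal minus the lean mean, was -0.34, -0.10, -0.65, -1.0, -0.53 and -0.34 in lean-HFD replicates 1 to 6 and lay between -0.24 and 0.07 in lean livers. Replicate 2 thus lay within the lean range, and replicate 4 farthest from it. *Fasn* followed this pattern with 944 in replicate 2, against 287 in replicate 4 and 237 in replicate 5. Without lean-HFD replicate 2, 13 members fell. Left out one at a time, the other livers gave between 10 and 12, and 10 without lean-HFD replicate 3.

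Genes of sugar entry and glycogen fell along with the chain. In the glucose metabolism list of 28 measured genes, 7 fell and 1 rose, with a median of -0.19. *Pklr* is 1 of these 7 and was also counted in the fatty acid synthesis list. Ketohexokinase (*Khk*), the first enzyme of fructose breakdown, had 525, 616 and 731 in lean-HFD livers against 839, 869 and 951 in lean livers. The groups were clearly separated, at a log2 difference of -0.51 (SE 0.0873, limma adjusted *P*=0.16). *Tkfc*, a triose kinase of the same route, averaged 715 ± 132 in lean-HFD vs 932 ± 127 in lean livers (-0.39), and *Pgd* of the pentose phosphate pathway, a source of NADPH, 82.9 ± 18.9 in lean-HFD vs 131 ± 29.4 in lean livers (-0.67). *Tkfc* lost the criteria without any one of 9 single livers.

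Of 10 measured genes of glycogen handling, a family assembled after the values were seen, 4 fell and 0 rose. Glycogen synthase 2 (*Gys2*) averaged 638 ± 29.7 in lean-HFD and 791 ± 72.2 in lean livers without overlap (-0.31, SE 0.0787, limma adjusted *P*=0.49). The branching enzyme *Gbe1* averaged 540 ± 103 in lean-HFD vs 742 ± 74.7 in lean livers (-0.47), *Ugp2*, which makes UDP-glucose, 1087 ± 94.6 in lean-HFD vs 1401 ± 221 in lean livers (-0.36), and glycogen phosphorylase *Pygl* 740 ± 95.3 in lean-HFD vs 937 ± 65.9 in lean livers (-0.35). Enzymes of glycogen making and of its breakdown thus both fell. Among them, *Gys2*, *Pygl* and *Ugp2* are also members of the glucose list and were already counted there. *Ugp2* lost the criteria when any of 6 single livers was left out. Of 9 measured genes around pyruvate and citrate, also grouped after their values were seen, 3 fell and 0 rose. The kinase *Pdk1*, which switches pyruvate dehydrogenase off, fell by 0.63 on the log2 scale (SE 0.141, limma adjusted *P*=0.385), the dehydrogenase subunit *Dlat* by 0.46 and citrate synthase (*Cs*) by 0.35. The other subunits *Pdha1* (-0.15), *Pdhb* (-0.16) and *Dld* (0.00), the kinase *Pdk2* (0.04), the aconitase *Aco1* (0.16) and the citrate carrier *Slc25a1* (-0.03) did not pass. Whether the calls of *Pdk1*, *Dlat* and *Cs* hold with single livers left out was not followed gene by gene.

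In the opposite direction, *Pck1*, the rate-limiting enzyme of gluconeogenesis, rose and was the only riser of the glucose list. It had 2495, 2659 and 3059 in lean-HFD livers against 1520, 2056 and 2569 in lean livers. Only lean replicate 2 lay among the lean-HFD values, and the log2 difference was 0.43 (SE 0.114, limma adjusted *P*=0.531). Glucose-6-phosphatase (*G6pc*) averaged 586 ± 279 in lean-HFD vs 662 ± 241 in lean livers and did not pass.

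Genes by which the liver burns or stores fat did not pass with the brightest probe set of each gene. Of 46 measured genes of fat oxidation and ketogenesis, 0 passed the criteria in the limma fit, 9 had a *P* under 0.05, and the median was 0.03. The transcription factor *Ppara* averaged 234 ± 46.0 in lean-HFD vs 269 ± 29.6 in lean livers and the carnitine palmitoyltransferase *Cpt1a* 552 ± 79.2 in lean-HFD vs 627 ± 87.8 in lean livers. *Pdk4* and *Angptl4*, known targets of PPAR-alpha, had log2 differences of -0.70 (limma adjusted *P*=0.636) and -0.29 (limma adjusted *P*=0.647) and did not pass. Among other members with small *P*, *Acot3* (-0.83) and *Abcd3* (-0.28) were lower and *Acaa2* (0.20) was higher. In all, 26 of the 46 differences lay above 0.

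Of 27 genes of lipid droplets and fat uptake, 0 passed, 5 had a *P* under 0.05, and 22 lay below 0, with a median of -0.17. The droplet coat *Plin2* averaged 384 ± 111 in lean-HFD vs 575 ± 189 in lean livers (-0.58, limma adjusted *P*=0.702), and the fatty acid carrier *Cd36* 246 ± 158 in lean-HFD vs 447 ± 237 in lean livers (-0.93, limma adjusted *P*=0.802). Cholesterol synthesis had 0 of 23 members past the criteria and 0 with a *P* under 0.05. *Srebf2*, its regulator, averaged 65.2 ± 11.9 in lean-HFD vs 51.3 ± 10.2 in lean livers, a difference of 0.35 that did not pass (limma adjusted *P*=0.783, exact permutation *P*=0.0628). The median of this list ranged from -0.42 in lean-HFD replicate 1 to 0.69 in replicate 2, wider than its range of -0.30 to 0.25 over lean livers.

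*Lepr* gave the smallest *P* among named genes. The receptor of leptin, the fat cell hormone of energy stores, had 17.0, 20.3 and 21.6 in lean-HFD livers and 31.5, 51.3 and 71.7 in lean livers. The 6 lean-HFD values lay close together, whereas the lean values scattered widely above them, and *Lepr* fell by 1.39 on the log2 scale (SE 0.168, limma adjusted *P*=0.0291). *Rgs16*, which shortens G protein signalling, had 192, 541 and 855 in lean-HFD livers against 1011, 1201 and 1595 in lean livers, without overlap (-1.39, SE 0.293, limma adjusted *P*=0.336). The ion channel gene *Hcn3* averaged 10.1 ± 1.61 in lean-HFD vs 18.0 ± 3.04 in lean livers, close to the minimum of 8. *Hamp2*, a hepcidin gene, showed the largest decrease of all genes past the criteria, with 64.0, 207 and 294 in lean-HFD livers against 418, 528 and 948 in lean livers (-1.77, SE 0.350, limma adjusted *P*=0.291). Its close relative *Hamp*, the hepcidin that lowers iron export, averaged 5005 ± 337 in lean-HFD vs 5275 ± 401 in lean livers (-0.08), and how far the probes of both copies can be kept apart was not tested.

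Bile acid genes moved in both directions. *Cyp8b1*, the sterol 12-alpha-hydroxylase that directs synthesis towards cholic acid, had 181, 338 and 453 in lean-HFD livers against 533, 728 and 836 in lean livers. The groups did not overlap (-1.20, SE 0.199, limma adjusted *P*=0.142). *Cyp7b1* of the alternative pathway had 691, 1209 and 1914 in lean-HFD livers against 382, 475 and 769 in lean livers, and only its lowest 2 lean-HFD livers lay below the highest lean liver (1.19, SE 0.284, limma adjusted *P*=0.417). *Cyp7a1*, the rate-limiting enzyme of the classical pathway, averaged 834 ± 301 in lean-HFD vs 1243 ± 457 in lean livers and did not pass (-0.59, limma adjusted *P*=0.802). *Cyp2c70*, which makes muricholic acids in mice, averaged 2178 ± 635 in lean-HFD vs 1419 ± 162 in lean livers, and the racemase *Amacr* 117 ± 15.9 in lean-HFD vs 83.8 ± 10.8 in lean livers. *Cyp2c70* lost the criteria without lean-HFD replicate 3 or 6 or lean replicate 1. In all, 3 of 27 measured genes rose and 1 fell, with a median of 0.03. The canalicular water channel *Aqp8* fell by 1.19, but lost the criteria without lean-HFD replicate 3 or 4 or lean replicate 1 or 5.

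Some other oxidising enzymes rose. Of 45 measured cytochrome P450 genes 6 rose and 0 fell, with a median of 0.04 and 16 differences below 0, and single livers left out gave 4 to 6 that rose and up to 3 that fell. *Cyp1a2*, which clears caffeine and many drugs, had 2138, 2623 and 3209 in lean-HFD livers against 1331, 1637 and 1906 in lean livers (0.67, SE 0.115, limma adjusted *P*=0.16). *Cyp2c23* (0.59), *Cyp3a13* (0.44), *Cyp2a12* (0.40), *Cyp2f2* (0.34) and *Cyp4v3* (0.33) rose by less. *Cyp3a13* lost the criteria without any one of 8 single livers and *Cyp4v3* without any one of 4. *Cyp2c38* and *Cyp17a1* had lower averages, with differences of -1.54 and -1.48, and did not pass. The aldehyde oxidase *Aox3* had 1673, 2082 and 2689 in lean-HFD livers against 750, 1058 and 1293 in lean livers, so that every lean-HFD liver exceeded every lean liver (1.05, SE 0.161, limma adjusted *P*=0.122).

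The largest increase was that of *Selenbp2*, a selenium-binding protein gene, with 373, 884 and 2235 in lean-HFD livers against 129, 255 and 315 in lean livers. The groups did not overlap, but lean-HFD replicates 3, 5 and 6 held the high values (1.98, SE 0.427, limma adjusted *P*=0.353). The same replicates were also the highest for *Cyp7b1* and for complement *C6*. *Selenbp2* and *Cyp7b1* are both known to be higher in male than in female mouse liver. In the list of growth hormone and sex-specific genes 4 of 29 measured members rose, *Cyp7b1*, *C6*, *C8a* and *Igfals*, 0 fell, and the median was 0.13. Of these, *Cyp7b1* was also counted among the bile acid genes. *Igfals*, the carrier subunit of circulating IGF1 complexes, lost the criteria without any one of 10 single livers.

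Some secreted proteins of complement and coagulation rose. Of the 7 genes of the terminal complement pathway, which assemble the membrane attack complex and were grouped after their values were seen, 4 rose and 0 fell. Of these 4, *C6* and *C8a* were also counted in the growth hormone list. *C6* had 481, 765 and 1235 in lean-HFD livers against 370, 460 and 579 in lean livers (0.79, SE 0.221, limma adjusted *P*=0.539). *C8a* had 1481, 1632 and 2338 in lean-HFD livers against 1029, 1050 and 1318 in lean livers, with no overlap (0.64, SE 0.120, limma adjusted *P*=0.221). *C8b* averaged 2280 ± 445 in lean-HFD vs 1474 ± 282 in lean livers (0.63) and *C9* 2013 ± 283 in lean-HFD vs 1506 ± 186 in lean livers (0.42). Lean-HFD replicate 3 held the highest values of *C6* and *C8a*, 1235 and 2338, and without it both still passed, at differences of 0.66 and 0.55. The C5 gene *Hc* (0.28, limma adjusted *P*=0.645), *C7* (-0.19) and *C8g* (-0.01) did not pass. In the coagulation list, factor XI (*F11*) rose by 0.77 (302, 442 and 537 in lean-HFD against 207, 241 and 300 in lean livers) and protein C (*Proc*) by 0.27, 18 of 22 differences lay above 0, and the median was 0.10, or 0.08 without lean-HFD replicate 3, in which it was highest. *Proc* lost the criteria without any one of 7 single livers.

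Among apolipoprotein genes 2 of 25 rose and 2 fell. *Saa4*, a constitutive serum amyloid of HDL, had 933, 1202 and 1875 in lean-HFD livers against 571, 654 and 905 in lean livers (0.81, SE 0.170, limma adjusted *P*=0.336). The receptor *Lrp1* rose by 0.32. *Pltp*, which transfers phospholipids to HDL, averaged 137 ± 56.3 in lean-HFD vs 309 ± 135 in lean livers and fell by 1.16 (SE 0.278, limma adjusted *P*=0.423), and *Tm6sf2*, needed to lipidate VLDL, fell by 0.29. *Lrp1* lost the criteria without any one of 8 and *Tm6sf2* without any one of 7 single livers.

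Of 39 measured genes of the urea cycle and amino acid breakdown, 4 rose and 0 fell, with a median of 0.10. *Agxt*, which converts glyoxylate to glycine, had 299, 402 and 408 in lean-HFD livers against 146, 228 and 242 in lean livers, without overlap (0.80, SE 0.138, limma adjusted *P*=0.16). *Hao1*, the glycolate oxidase one step before it, which is outside the list and was chosen after its values were seen, averaged 914 ± 172 in lean-HFD vs 559 ± 53.3 in lean livers and rose by 0.70 (limma adjusted *P*=0.176). *Aadat* of lysine breakdown averaged 716 ± 179 in lean-HFD vs 453 ± 51.6 in lean livers (0.63), and *Prodh2* of hydroxyproline breakdown 239 ± 22.8 in lean-HFD vs 192 ± 25.0 in lean livers (0.32). Of 12 genes of branched-chain amino acid breakdown, assembled after their values were seen, 4 rose and 0 fell: *Mmaa* (0.42), *Acadsb* (0.40), *Ivd* (0.37) and *Dbt* (0.36). *Dbt* was also counted among the 4 risers of the urea cycle and amino acid list. *Bckdha* (0.04) and *Bckdhb* (-0.04), which encode the E1 subunits of the complex that holds *Dbt*, did not pass. *Dbt* and *Prodh2* each lost the criteria without any one of 8 single livers.

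**Figure D3:**
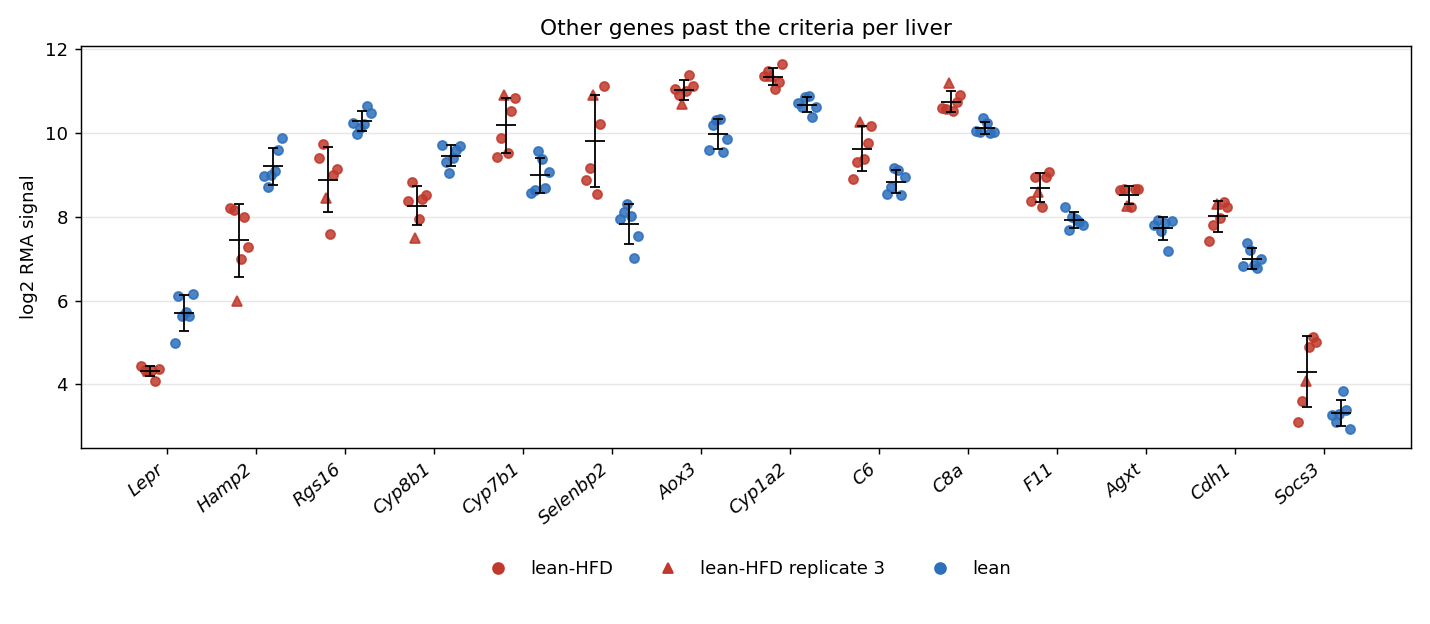
Log2 RMA signal (y axis) of further genes past the criteria (x axis) in each liver, lean-HFD (red, replicate 3 as a triangle) left of lean (blue), with the mean and SD of 6 livers. *Lepr*, *Hamp2*, *Rgs16* and *Cyp8b1* lay lower in every lean-HFD liver than in any lean liver, and *Selenbp2*, *Aox3*, *Cyp1a2*, *C8a*, *F11*, *Agxt* and *Cdh1* higher.

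Chaperones of the ER rose together. In the list of the integrated stress and unfolded protein response, 8 of 29 measured genes rose (27.6%), 0 fell, 24 differences lay above 0, and the median was 0.20. The ER luminal co-chaperone *Sdf2l1* had 74.2, 112 and 114 in lean-HFD livers against 45.1, 64.5 and 81.1 in lean livers. Only lean-HFD replicate 4 lay among the lean values (0.73, SE 0.160, limma adjusted *P*=0.372). *Dnajb11*, a co-chaperone of BiP, had 257, 274 and 379 in lean-HFD livers against 159, 198 and 229 in lean livers and did not overlap (0.56, SE 0.113, limma adjusted *P*=0.314). The disulphide isomerase *Pdia6* averaged 467 ± 83.4 in lean-HFD vs 326 ± 33.8 in lean livers (0.51), the chaperone *Hyou1* 223 ± 39.5 in lean-HFD vs 166 ± 31.7 in lean livers (0.43) and *Creld2* 73.2 ± 15.2 in lean-HFD vs 54.2 ± 5.51 in lean livers (0.42). Smaller increases were those of calreticulin (*Calr*, 0.33), of *Hspa5*, which encodes the central ER chaperone BiP (0.30), and of *Pdia3* (0.28). Members of the same list that belong to its stress-kinase arm did not pass: *Atf4* had a difference of -0.03, *Ddit3* of 0.10, *Trib3* of 0.04 and *Asns* of 0.07. Other members did not pass either, among them *Ern1* (0.35), *Manf* (0.35), *Sel1l* (0.24) and *Dnajc3* (0.20). *Atf6* ranged from 245 to 308 in lean-HFD vs 231 to 360 in lean livers, and *Dnajb9* from 379 to 475 vs 387 to 637. *Hsp90b1*, an abundant ER chaperone, had 0.08 and did not pass.

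Of these 8 calls, 5 were lost when single livers were left out. *Sdf2l1*, *Dnajb11* and *Pdia6* stayed past the criteria whichever liver was left out, while *Hspa5*, *Pdia3* and *Hyou1* each lost them without any one of 9 single livers, *Creld2* without any one of 4 and *Calr* without any one of 3. The list count was 4 without lean-HFD replicate 3, 3 without lean replicate 6, and 5 without lean-HFD replicate 4 or 6 or lean replicate 1, 2 or 3. Lean-HFD replicate 3 held the highest of the 12 values for 14 of the 29 genes. Its list median was 0.43 above the lean mean, against 0.06 to 0.22 in the other lean-HFD livers and -0.06 to 0.07 in lean livers. The share of the acute phase seen in this liver in the increase was not tested, and without this liver the median of the list was 0.16.

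**Figure D4:**
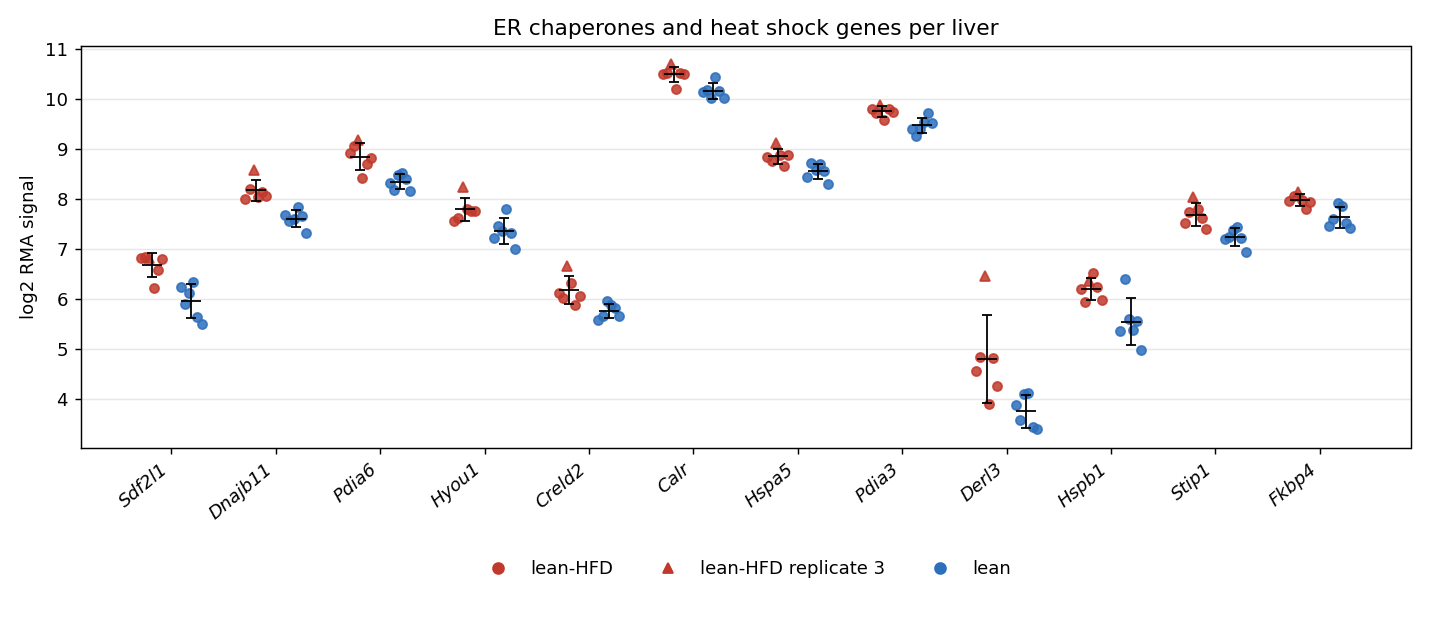
Log2 RMA signal (y axis) of ER chaperone and heat shock genes (x axis) in each liver, lean-HFD (red, replicate 3 as a triangle) left of lean (blue), with the mean and SD of 6 livers. Replicate 3 was the highest lean-HFD liver for *Dnajb11*, *Pdia6*, *Hyou1*, *Creld2*, *Calr*, *Hspa5*, *Pdia3*, *Derl3*, *Stip1* and *Fkbp4*, and *Dnajb11* does not overlap between the groups.

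Promoters of the genes that moved together were searched for known elements in RefSeq windows of 300 bases (250 before to 50 after the gene start, build GRCm38.p6), on both strands. The ER stress element, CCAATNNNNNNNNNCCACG, bound in the unfolded protein response by NF-Y with ATF6, was added to the search after the expression values had been seen. It lay in 4 of the 7 windows of the ER genes that rose (57.1%) and in 0.119% of all 32851 windows. Members of the same list that did not rise were not counted. These shares therefore cannot tell whether the element goes with the increase or with membership of the list. The 4 windows are shown because they carry the element that 4 of the risers share, which stands in capitals. All are read 5′ to 3′ along the gene, and *Calr* and *Creld2* hold the element on the opposite strand. The window of *Calr* also holds an E-box, CACGTG, outside the element.
Calr (chr8:84846882-84847181, minus strand): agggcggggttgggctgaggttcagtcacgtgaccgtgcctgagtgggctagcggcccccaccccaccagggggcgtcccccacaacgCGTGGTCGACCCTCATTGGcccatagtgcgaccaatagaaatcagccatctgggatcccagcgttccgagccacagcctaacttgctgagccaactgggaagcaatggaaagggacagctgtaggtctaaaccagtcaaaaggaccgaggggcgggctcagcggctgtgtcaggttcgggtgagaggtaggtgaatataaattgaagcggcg
Creld2 (chr15:88819396-88819695, plus strand): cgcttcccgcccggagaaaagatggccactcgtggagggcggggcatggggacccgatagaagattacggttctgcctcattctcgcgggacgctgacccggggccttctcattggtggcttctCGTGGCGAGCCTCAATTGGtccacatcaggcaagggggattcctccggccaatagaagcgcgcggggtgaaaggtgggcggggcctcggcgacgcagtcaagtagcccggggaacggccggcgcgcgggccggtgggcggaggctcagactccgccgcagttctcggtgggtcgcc
Hspa5 (chr2:34771840-34772139, plus strand): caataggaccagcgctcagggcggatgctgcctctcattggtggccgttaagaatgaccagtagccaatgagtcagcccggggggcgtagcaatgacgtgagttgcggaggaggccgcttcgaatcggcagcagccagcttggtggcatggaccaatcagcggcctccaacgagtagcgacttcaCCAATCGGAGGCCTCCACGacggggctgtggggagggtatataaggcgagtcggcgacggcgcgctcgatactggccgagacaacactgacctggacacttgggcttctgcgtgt
Pdia6 (chr12:17266339-17266638, plus strand): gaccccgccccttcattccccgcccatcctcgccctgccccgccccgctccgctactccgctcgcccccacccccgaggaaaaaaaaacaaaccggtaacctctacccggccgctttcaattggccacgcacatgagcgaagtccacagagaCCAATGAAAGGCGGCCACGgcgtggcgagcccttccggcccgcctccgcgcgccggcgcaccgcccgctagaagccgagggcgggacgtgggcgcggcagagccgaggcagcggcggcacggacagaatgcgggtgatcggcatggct
The windows of the other 3 risers with a window did not hold these letters. A match describes the sequence only, and binding was not measured.

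Of the 11 fatty acid synthesis genes that fell, 10 had windows, 13 in all. The sterol element TCACNCCAC of SREBP lay in 0 of the 13 (1.24% of all windows) and the DR1 repeat AGGNCANAGGNCA of PPAR-alpha and HNF4A in 0 (0.381%). The E-box CACGTG lay in 1, that of *Elovl5* (7.69%, against 7.15% of all windows). The ER stress element also lay in 1 of the 13, that of *Acacb* (7.69%). That these letters were not found in so short a window says nothing of the factors.

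Cytosolic chaperones rose in part. Of 21 heat shock genes 3 rose and 0 fell, with a median of 0.06. *Hspb1*, a small heat shock protein, averaged 74.3 ± 11.4 in lean-HFD and 49.0 ± 18.1 in lean livers (0.66), and the co-chaperones of HSP90 *Stip1* 208 ± 33.7 in lean-HFD vs 151 ± 18.0 in lean livers (0.45) and *Fkbp4* 253 ± 19.8 in lean-HFD vs 199 ± 29.3 in lean livers (0.35). *Stip1* passed whichever liver was left out. *Hspb1* and *Fkbp4* each lost the criteria without any one of 5 single livers, and the list count was 1 without lean-HFD replicate 3 or lean replicate 1 or 6.

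Further genes past the criteria belonged to transport, conjugation and secretion. The organic anion carrier *Slc22a7* averaged 91.4 ± 47.7 in lean-HFD and 37.6 ± 13.5 in lean livers and rose by 1.15, whereas its relative *Slc22a27* averaged 6.01 ± 2.23 in lean-HFD vs 14.9 ± 5.62 in lean livers and fell by 1.31. Of 38 conjugation genes 1 rose, the sulphotransferase *Sult5a1* (0.55), and 1 fell, the sulphotransferase *Sult1c2* (-0.86). *Slc22a7*, *Sult5a1* and *Sult1c2* lost the criteria without any one of 9, 7 and 8 single livers. The glutathione transferase *Gstm6* fell by 0.32 and was the 1 gene of the 29 in the oxidative stress list that passed. *Fam25c* averaged 258 ± 36.2 in lean-HFD vs 142 ± 27.7 in lean livers without overlap (0.87, SE 0.136, limma adjusted *P*=0.122), and the apolipoprotein L gene *Apol9b* 251 ± 59.6 in lean-HFD vs 141 ± 37.7 in lean livers (0.84). Of the clock list 1 of 22 genes rose, the repressor *Nfil3* (0.38), and of the immediate early list 2 of 26, *Socs3* and the AP-1 member *Fosl2* (0.40). Of 38 cell cycle genes 1 rose, the replication factor *Mcm10* (0.65). The remaining genes among the 15 largest ratios each way were *Cib3* (1.37), the pseudogene *Adh6-ps1* (0.95), *Zfp959* (0.83) and *Cspg5* (0.78), which rose, and *Rwdd2a* (-1.12), which fell. *Cib3*, *Cspg5* and *Rwdd2a* lost the criteria without any one of 3, 5 and 8 livers.

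Secreted and receptor genes chosen after their values were seen included *Inhbc*, an activin subunit of hepatocytes, with 354 ± 28.8 in lean-HFD against 208 ± 56.9 in lean livers (0.80, SE 0.147, limma adjusted *P*=0.2). The mannose-binding lectin *Mbl1* averaged 640 ± 80.9 in lean-HFD vs 469 ± 32.7 in lean livers (0.44) and leucine-rich glycoprotein *Lrg1* 782 ± 127 in lean-HFD vs 535 ± 65.2 in lean livers (0.54), both without overlap. The epithelial sodium channel subunit *Scnn1a* (0.75), the receptor *Lifr* (0.56) and the carboxypeptidase N subunit *Cpn2* (0.47) rose as well. Of genes of ER processing outside the list, *Derl3*, which guides misfolded proteins out of the ER, averaged 33.6 ± 26.8 in lean-HFD vs 14 ± 3.07 in lean livers, with 87.2 in lean-HFD replicate 3 and 15 to 28.5 in the other lean-HFD livers. Its call (1.05, SE 0.339, limma adjusted *P*=0.63) was lost without any one of 7 single livers, but not without replicate 3. *Fkbp11* (0.54) and the oligosaccharyltransferase subunit *Rpn1* (0.33) also rose. Both were among the genes chosen after their values were seen, so they give no share of ER genes that rose. Whether their calls hold with single livers left out was not followed gene by gene.

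Few genes of the TNF and NF-kB, interferon and acute phase lists passed. *Lrg1*, *Mbl1*, *C9* and *Lifr*, which rose, were outside these lists. Of 38 TNF and NF-kB genes 1 rose, the nuclear co-factor *Bcl3* (0.52, limma adjusted *P*=0.631), and the median was -0.02. *Il1b* averaged 14.1 ± 3.95 in lean-HFD vs 13 ± 4.56 in lean livers (exact permutation *P*=0.554), *Tnf* 9.82 ± 0.785 in lean-HFD vs 10.4 ± 3.53 in lean livers (*P*=0.959 in the exact permutation test) and *Il6* 4.69 ± 0.386 in lean-HFD vs 4.90 ± 0.709 in lean livers (*P*=0.595 in the exact permutation test), all of them low signals. *Socs3*, the inhibitor that cytokines and leptin induce, had 8.57, 23.3 and 35.2 in lean-HFD livers against 7.61, 9.73 and 14.4 in lean livers. Lean-HFD replicates 4, 5 and 6 were high and replicates 1 and 2 within the lean range (1.0, SE 0.325, limma adjusted *P*=0.631). The call of *Socs3* was lost without any one of 9 single livers, with array weights and when all probe sets of a gene were averaged. *Socs3* was counted in both the immediate early and the acute phase list. *Bcl3* lost its call without any one of 7 single livers.

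Of 42 interferon-stimulated genes, 38 lay above 0 with a median of 0.18, but only *Mx2* passed (0.73, limma adjusted *P*=0.62), 10 had a *P* under 0.05, and *Mx2* lost the criteria without any one of 7 single livers. Lean-HFD replicate 4 held the highest of the 12 values for 27 of these genes. The nucleic acid sensor *Zbp1* had 177 in this liver and 131 in replicate 5, against 68.1 to 93.6 in the other lean-HFD livers and 36.7 to 86.5 in lean livers. Without lean-HFD replicate 4 or 5 or lean replicate 1, 3, 4 or 5 the count was 0. It was 2 without lean-HFD replicate 2, 4 without lean-HFD replicate 3, 7 without lean-HFD replicate 6 and 3 without lean replicate 2. Replicate 6 had the lowest list median of the lean-HFD livers, -0.07 from the lean mean. The acute phase list had 1 gene that rose (*Socs3*) and 1 that fell (*Hamp2*), 24 of 29 differences above 0, 10 genes at a *P* under 0.05 and a median of 0.19, which was 0.09 without lean-HFD replicate 3. Haptoglobin (*Hp*) averaged 4009 ± 580 in lean-HFD vs 3161 ± 410 in lean livers, without overlap, and did not pass. Nor did *Lbp* (0.62), *Itih3* (0.42) and *Il1rn* (-0.34), of which *Lbp* and *Itih3* were highest in lean-HFD replicate 3. The count that rose was 4 without lean-HFD replicate 2 and 0 without lean-HFD replicate 4 or 5 or lean replicate 2, 5 or 6. In single livers its median stood 0.74 above the lean mean in lean-HFD replicate 3 and 0.02 to 0.11 above it in the other lean-HFD livers.

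Endothelial, stellate and Kupffer cell markers had list medians of -0.18, -0.10 and -0.08. Without lean-HFD replicate 6 the Kupffer median was 0. Of 17 endothelial genes 1 fell, *Oit3* (-0.50), and 15 differences lay below 0. Without lean-HFD replicate 3 the endothelial median was -0.07 and 0 genes fell. *Oit3* lost the criteria without any one of 9 single livers. The summed endothelial signal ranged from 1084 to 1695 in lean-HFD and from 1428 to 1868 in lean livers, with its lowest value in lean-HFD replicate 3. Of 23 Kupffer cell and macrophage genes 0 passed the limma criteria, 1 had a *P* under 0.05, and the sum ranged from 1073 to 1846 in lean-HFD and from 1389 to 1985 in lean livers. Of 16 stellate cell genes 0 passed, with 1 at a *P* under 0.05 and sums of 1660 to 2171 in lean-HFD vs 1999 to 2606 in lean livers. *Cdh1*, the E-cadherin of epithelial contacts, had 171, 275 and 328 in lean-HFD livers against 110, 122 and 166 in lean livers and rose without overlap (1.01, SE 0.165, limma adjusted *P*=0.136), while 0 of 9 cholangiocyte markers passed (1 with a *P* under 0.05). In the lists of T, NK and B cells (20 genes), neutrophils (13), skeletal muscle (10), red cells (2) and pancreas and gut (12), 0 genes passed, with 1, 1, 0, 0 and 2 at a limma *P* under 0.05. Of 9 adipocyte markers, *Pck1*, which the liver also expresses, was the 1 that rose. The part of these cells in the results was not tested.

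In further lists few or no genes passed. Of 40 genes of oxidative phosphorylation 0 passed, with 2 at a limma *P* under 0.05 and a median of 0.01. Of 29 genes of matrix and fibrosis 0 passed and 0 were under 0.05, and of 26 genes of one-carbon and methionine metabolism 0 passed and 1 was under 0.05. The glucocorticoid-induced list had 0 of 21 genes past the criteria, 4 under 0.05 and a median of 0.13. *Hamp2* was the 1 gene of 23 in the iron and heme list that fell.

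**Figure D5:**
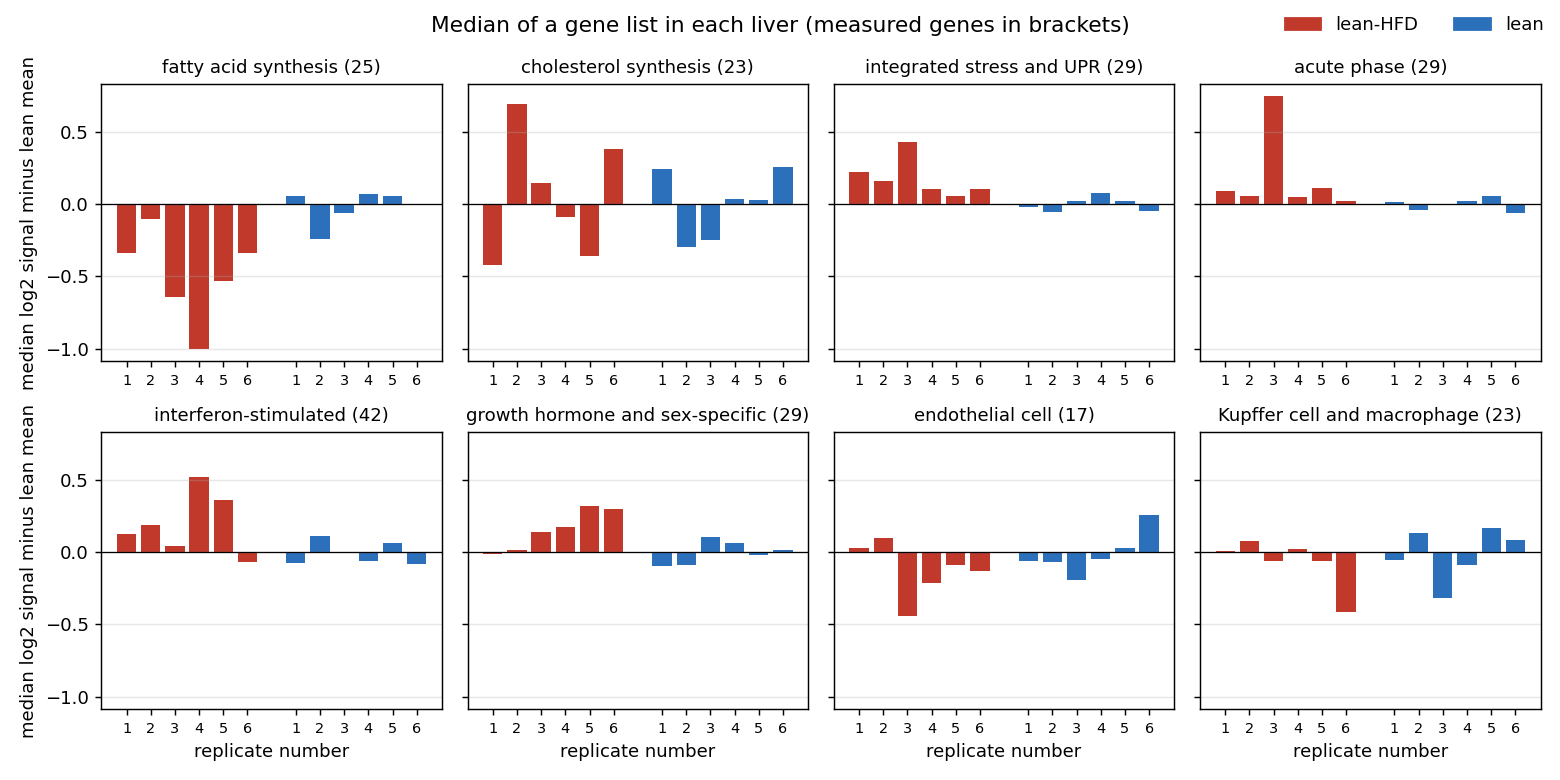
Median log2 signal of a list minus its lean mean (y axis) in lean-HFD replicates 1 to 6 (red) and lean replicates 1 to 6 (blue) for 8 gene lists. Fatty acid synthesis was lowest in lean-HFD replicate 4 (-1.0), the acute phase was high in replicate 3 (0.74) and the interferon list in replicates 4 and 5 (0.52 and 0.36).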

How the data were processed

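Liver total RNA of 12 mice, 1 array each, was used here. The deposited values are log2 signals that the authors made by RMA from Affymetrix Mouse Gene ST arrays in Expression Console 1.4.1.46, with sketch-quantile normalization and median polish. RMA compresses low signals and evens out differences between whole arrays. The genome build and annotation version are not given in the sources used here. Of 30 columns, 18 belonged to other groups and were not used. Groups came from sample titles.

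All 41345 probe sets were fitted in limma 3.58.1 (R 4.3.3), lean-HFD minus lean, and criteria followed the study's methods. Linear averages and SD are of 2 to the power of the log2 value, while differences and SE are of log2 values. *P*-values were adjusted by Benjamini-Hochberg over all probe sets. Probe sets were named through the platform annotation: 23521 had 1 symbol, 1820 several and 16004 none here, and those with 1 symbol gave 22180 genes, each by its brightest probe set. Probe sets of close paralogues may share signal. Whether mice of a group shared cages is not labelled for these samples. The study gives the energy intake over the 48 h per 2 mice, so some livers may come from cage mates. The *P*-values therefore measure the spread between these livers only.

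Named were the 15 genes with the largest ratio each way past the criteria (29 locus-number, small RNA or receptor segment symbols set aside), the 10 smallest *P*, all members past the criteria of 38 gene lists (897 of 985 genes measured), up to 4 more members of a described list, and the qPCR genes of the study. Members and lists were chosen with earlier results of these data known. Families said to be grouped later fall outside this rule. So do single genes picked without it, among them *Alb*, *Mlxipl*, *Thrsp*, *G6pc*, *Ppara*, *Cpt1a*, *Angptl4*, *Cd36*, *Hamp*, *Lcn2*, *Saa2* and *Orm2*. Some members of the stress list that did not pass, such as *Atf4* and *Ddit3*, were also picked without it. Loss of a call with single livers left out was followed gene by gene only for genes named by this rule. For other genes, silence on this point does not mean that the call held. The fit was tested on simulated data. Alternatives were another prior, array weights, median centring, quantile normalization, other minima and fold thresholds, other probe set choices, a replicate block and each liver left out. List counts with single livers left out were added after seeing the data. Python 3.11.15, NumPy 2.4.6, pandas 2.3.3, SciPy 1.17.1 and Matplotlib 3.10.9 were also used.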

Additional observations from a re-analysis of the deposited data

Results flagged for a closer look

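Single livers stood away from the other 5 of their group for 12 of 170 combinations of a named gene and a group (Dixon's gap test), where chance gives about 8.5 at 1 in 20. Of these, 4 were lean-HFD replicate 3. It had 87.2 for *Derl3* (15 to 28.5 in the other lean-HFD livers), 379 for *Dnajb11* (257 to 295), 299.8 for *Hyou1* (190 to 221) and 1136 for *Elovl5* (2051 to 2636). Lean-HFD replicate 4 was low for *Dbt*, at 252 (332 to 375), and replicate 5 for *Lepr*, at 17.0 (20.0 to 21.6). Lean replicate 3 held 64.0 for *Slc22a7* (27.5 to 37.4 in the other lean livers), 224 for *Adh6-ps1* (103 to 138), 176 for *Igfals* (99.1 to 120) and 31.6 for *Srebf2* (51.3 to 60.1). Lean replicate 5 was low for *Agxt*, at 146 (204 to 242), and lean replicate 4 high for *Tnf*, at 17.3 (7.60 to 10).

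Outside the named genes, a probe set with no gene name here (17209491) had the smallest adjusted *P* of the fit. It averaged 10.5 in lean-HFD and 5.20 in lean livers, a log2 difference of 1.01 (limma, adjusted *P*=0.00694).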

How the results depend on the processing

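With 1 liver left out at a time, 458 to 611 probe sets passed the criteria and 1 to 10 the FDR of 10%, and 128 to 200 genes rose, 115 to 165 fell and 0 to 7 passed the FDR, against 532, 3, 165, 151 and 2 with all livers. A fold threshold of 1.5 left 198 probe sets and 44 higher and 41 lower genes. The FDR was passed by 15 probe sets and 12 genes with an intensity trend and robust prior, by 5 probe sets with array weights, by 29 probe sets and 29 genes when only probe sets with a single symbol were fitted, and by 29 genes when all probe sets of a gene were averaged. With the replicate number as a block, 575 probe sets passed the criteria and 0 probe sets and 0 genes the FDR. Whether the numbers pair the livers is not labelled. Same-numbered livers deviated together with *r* of only -0.007 to 0.062, but 4 of 6 lean-HFD livers correlated best with their own number. These values do not decide the question. Under the block, 20 of the 80 named genes past the criteria lost them and the counts of the glucose and unfolded protein response lists were 3 and 5. Fat oxidation then had 2 genes that fell, lipid droplets 3 that fell and 1 that rose, and the acute phase 4 that rose. With all probe sets averaged, 4 fat oxidation genes and 1 droplet gene fell and 4 acute phase genes rose. Of the 80, 49 kept them whichever liver was left out, 34 lost them at the 1.5 threshold, at most 6 lost them under any other setting, and 0 reversed. The median of the immediate early list was 0.0489 without lean replicate 4 and that of the T, NK and B cell list -0.0249 without lean replicate 5. Signals near the minimum of 8 limit what can be seen of *Slc22a27*, lost at a minimum of 16, *Hcn3*, *Il1b*, *Il6* and *Tnf*. The cause of these shifts was not tested.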
